A study of Homo sapiens with 10 samples.

Results

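The muscle microRNA loci are the places in the genome from which miR-1, miR-133 and miR-206 are made. H3K27ac, an acetylated form of histone H3 that marks active promoters and enhancers, was followed at these loci by chromatin immunoprecipitation and sequencing (ChIP-seq) in Rh30, an established human alveolar rhabdomyosarcoma line. Within 3 windows, the 15 peaks described here were chosen by position, as the rows of the deposited peak table (hg19) that start there. The table has 42067 rows in all. The loci themselves were chosen with earlier results of these data, the H3K27ac counts, already known. The p-values and ranks below thus do not come from a choice blind to the measured values. The window of MIR1-1 and MIR133A2, chr20:61100000-61200000, held 7 peaks. That of MIR1-2 and MIR133A1, which lie in the gene MIB1, chr18:19270000-19470000, held 2 peaks, and that of MIR206 and MIR133B, chr6:51970000-52060000, held 6 peaks. A row exists only where the authors called a peak, so the presence of H3K27ac at these peaks is a condition of the choice and not a result. All 15 passed the filter on low counts, as did 41791 of the rows of the whole table.

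Every group carried the same engineered protein, PAX3-FOXO1-FKBP, the fusion transcription factor that drives this tumour joined to a degron, and was grown as the Rh30 line. Control cells received DMSO, the solvent, for a time the labels do not give. The other groups received 500 nM dTAG47, the degrader ligand of the FKBP tag, for 2 h, 4 h or 24 h. Each of the 4 groups had 2 H3K27ac libraries, named A and B in the table, with between 3540104 and 5001652 counts in peaks and a median peak of 48 to 69 counts. The 2 input libraries of DMSO cells were not analysed here. No protein was measured in these files and the table names no genes, so neither loss of the fusion nor the identity of the cells by their markers could be checked. In chromatin from a whole culture, more cells carrying the mark and more of the mark in each cell cannot be told apart.

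MicroRNAs are short RNAs that guide silencing complexes to messenger RNAs, mainly through the seed, the stretch near the 5′ end that pairs with the target. miR-1, miR-206 and the miR-133 family are made in muscle and are known there as targets of the myogenic factors MYOD1, MYOG, MEF2 and SRF. miR-1 and miR-206 are known to promote the exit of myoblasts from the cell cycle and their differentiation, and in rhabdomyosarcoma these microRNAs are known to be low. The mark measured here is on chromatin, and microRNA levels were not measured.

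The sequences are shown because the microRNAs named here share 2 seeds across the 3 loci. All 6 genes matched an entry of RefSeq's microRNA table (GRCh38.p14). The mature microRNAs are printed 5′ to 3′ with the seed, bases 2 to 8, in capitals. The table also lists the 5p arms miR-1-5p and miR-133a-5p, which have other seeds and are not printed.
miR-1-3p (from MIR1-1 and MIR1-2): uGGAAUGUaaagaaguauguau
miR-206 (from MIR206): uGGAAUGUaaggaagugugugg
miR-133a-3p (from MIR133A2 and MIR133A1): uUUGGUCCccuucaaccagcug
miR-133b (from MIR133B): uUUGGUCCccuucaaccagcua
miR-1-3p and miR-206 share their seed and 18 of 22 positions. Counted from the 5′ end of miR-1-3p they differ by A11G, A17G, A21G and U22G, with the base of miR-1-3p first. miR-133a-3p and miR-133b share their seed and 21 of 22 positions and differ by G22A, with the base of miR-133a-3p first. Among the microRNAs printed, each locus thus pairs 1 microRNA of the miR-1 seed with 1 of the miR-133 seed. Of 2370 mature names in the table, 3 carry the seed of miR-1, the third being miR-613, and 2 carry the seed of miR-133.

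The loci also differ in the genes around them, by the order of genes in RefSeq. MIR1-1 and MIR133A2 both lie in MIR1-1HG, a noncoding host transcript. MIR1-2 and MIR133A1 lie in MIB1, which encodes a ubiquitin ligase of Notch signalling, and in the noncoding MIR133A1HG. MIR133B lies in the noncoding LINCMD1, and MIR206 lies between PKHD1 and LINCMD1. The promoters of the microRNA hosts on chromosomes 20 and 18 are shown because they hold a stretch in common, which is in capitals. Each runs from 250 bases before to 50 bases after the start of the gene on GRCh38.p14, and no position on that build can be set beside the hg19 peaks.
MIR1-1HG, plus strand, chr20:62550203-62550502: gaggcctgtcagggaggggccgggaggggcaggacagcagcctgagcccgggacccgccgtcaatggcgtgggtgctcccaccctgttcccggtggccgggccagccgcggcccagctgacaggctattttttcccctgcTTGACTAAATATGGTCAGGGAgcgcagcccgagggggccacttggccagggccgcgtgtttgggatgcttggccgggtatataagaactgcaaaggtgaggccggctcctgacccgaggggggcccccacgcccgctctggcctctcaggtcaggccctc
MIR133A1HG, minus strand, chr18:21831357-21831656: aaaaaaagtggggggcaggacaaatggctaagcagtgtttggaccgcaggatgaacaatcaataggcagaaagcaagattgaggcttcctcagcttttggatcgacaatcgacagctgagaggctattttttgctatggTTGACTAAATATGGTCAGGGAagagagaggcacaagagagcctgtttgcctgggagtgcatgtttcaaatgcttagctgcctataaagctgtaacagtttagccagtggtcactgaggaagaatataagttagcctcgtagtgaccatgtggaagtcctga
The stretch TTGACTAAATATGGTCAGGGA is 21 bases long, and on either strand it occurs in 2 of 35116 RefSeq promoters, these 2. With the promoters set side by side at that stretch, 46 of 60 bases were identical in the best window and 109 of 299 over the whole. The E-box CANNTG, the recognition sequence of MYOD1 and MYOG, occurred 2 times in the MIR1-1HG promoter, 4 times in that of MIR133A1HG and 0 times in that of MIB1, and it is found in 68.7% of all promoters searched. The strict MEF2 site, in 2.99% of promoters, and the strict CArG box bound by SRF, in 1.29%, were sought on both strands and had no match in these 3 promoters. Matches are letters and not shown to be bound.

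Of the 3 loci, that of MIR1-1 and MIR133A2 held all the peaks that were called. Its summed H3K27ac, as CPM (counts scaled to a common library size) over the 7 peaks, was 264 and 249 in DMSO libraries A and B, 323 and 328 after 2 h, 387 and 367 after 4 h, and 475 and 482 after 24 h. No group overlapped the next, and the lower 24 h library stood 1.80-fold above the higher DMSO library. As means the level went from 257 ± 10.8 in DMSO (SD, n = 2) to 326 ± 3.4 after 2 h, 377 ± 14.1 after 4 h and 479 ± 5.12 after 24 h. The 24 h mean was 1.87-fold the DMSO mean. The sum over the 2 peaks of the MIR1-2 and MIR133A1 window stayed between 93.2 and 111 CPM over the 8 libraries, with 98.7 ± 6.98 in DMSO and 103 ± 0.814 at 24 h. At MIR206 and MIR133B the sum over 6 peaks ran from 65.2 to 79.2 CPM, with 67.5 ± 3.32 in DMSO, 78.2 ± 1.42 at 4 h and 73.2 ± 7.67 at 24 h. Both 4 h libraries of that locus were above both DMSO libraries, while the 24 h libraries were on either side of DMSO library B. These sums were not tested, nor was the difference between loci.

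**Figure D1:**
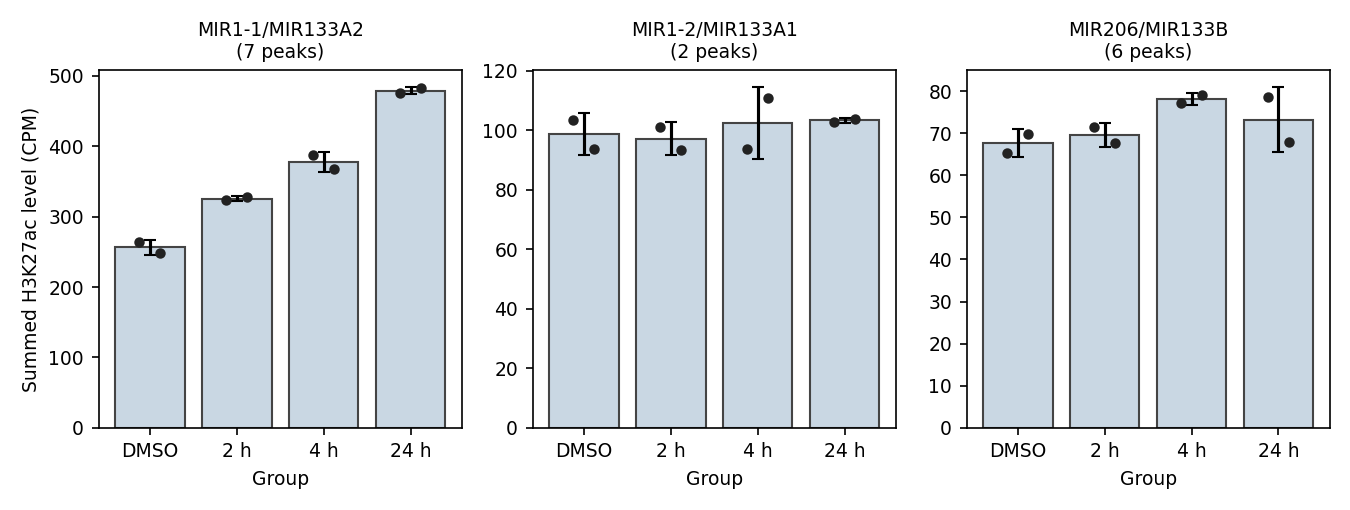
Summed H3K27ac level in CPM (vertical axes, each from 0) of the peaks in each window, by group. Bars are means, error bars are SD of 2 libraries and dots are libraries. The MIR1-1/MIR133A2 sum is 257 CPM in DMSO and 479 CPM at 24 h, while the other loci differ by at most 1.16-fold between a treated mean and the DMSO mean.

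Counts were tested per peak with edgeR's quasi-likelihood test over all peaks, called at a Benjamini-Hochberg adjusted p under 0.05. At 2 h, 2 of the 15 peaks were called higher and 0 lower, where 0.194% of all peaks were called higher and 1.03% lower. At 4 h, 5 were called higher and 0 lower, against 0.567% and 1.67% of all peaks. At 24 h, 6 were called higher and 0 lower, against 3.46% and 4.88%. Every called peak was in the MIR1-1 and MIR133A2 window. At an unadjusted p under 0.05, 5 of the 15 were higher and 1 was lower at 2 h, where 4.71% and 6.42% of all peaks were. At 4 h these were 8 and 1, against 5.88% and 7.18%, and at 24 h 7 and 2, against 9.83% and 11.2%. Over the 15 peaks the median log2 change was 0.15, 0.40 and 0.40 at the 3 times, and over all peaks it was 0.00 each time. By the test of any difference among the 4 groups, 6 of 15 were called, the same 6 as at 24 h, against 7.99% of all peaks. At 24 h both libraries were above both DMSO libraries in 8 of the 15 peaks, against 25% of all peaks, and below them in 2, against 25.1%.

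**Figure D2:**
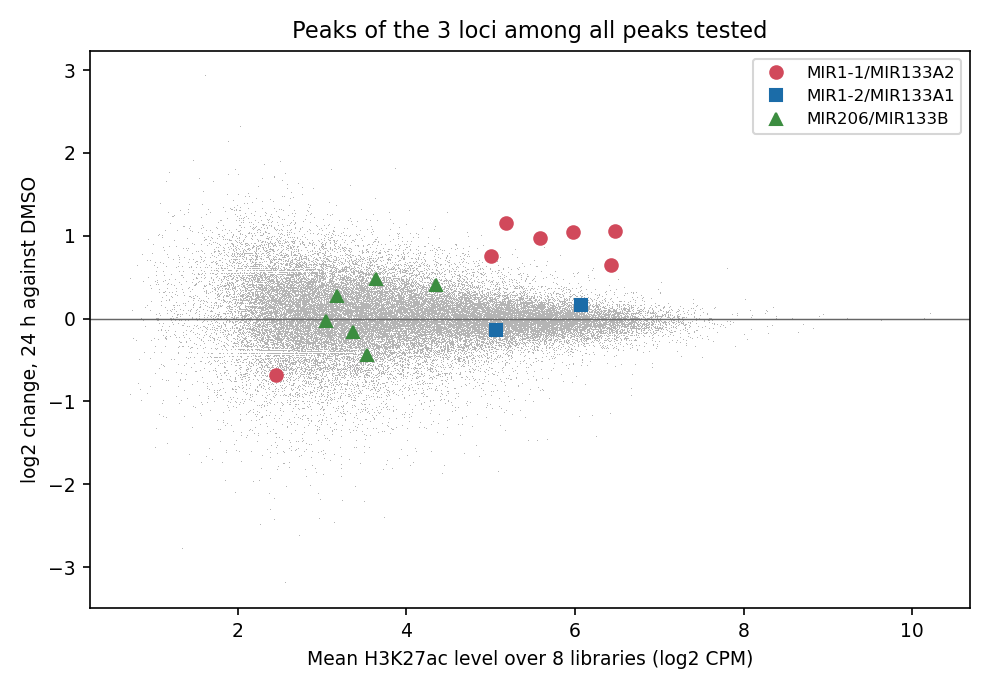
Log2 change at 24 h against DMSO (vertical axis) by mean H3K27ac level over the 8 libraries in log2 CPM (horizontal axis) for each of the 41791 peaks tested (grey points), with the peaks of the 3 loci as coloured symbols. The 6 called peaks of MIR1-1/MIR133A2 lie above most grey points of their level, between 0.65 and 1.16, and the other 9 lie among the grey points.

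The 7 peaks of the MIR1-1 and MIR133A2 window are numbered here by position. Peaks 1 to 6 lie within 19.2 kb, from 61147999 to 61167240 on chromosome 20, and peak 7 lies 26.1 kb beyond. Peak 2, chr20:61155329-61155729, was the strongest of the locus over the 8 libraries and stronger than 96.8% of all peaks. It held 58.9 and 57.7 CPM in DMSO, 83.9 and 84.1 after 2 h, 92.2 and 91.8 after 4 h, and 123 and 120 after 24 h. The libraries of a group lay close together and no groups overlapped. Against DMSO it rose by 0.53 (SE 0.10) on the log2 scale at 2 h (edgeR adjusted p = 9.18e-05), by 0.66 (SE 0.09) at 4 h (8.53e-08) and by 1.06 (SE 0.09) at 24 h (1.74e-21). It was the 8th of all 41791 peaks by p-value at 24 h, while 265 peaks had a larger log2 rise.

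Peak 3, chr20:61156341-61156741, lies 0.612 kb beyond peak 2 and was at the highest level of the 7 in DMSO. Its values were 68 and 68.5 CPM in DMSO, 76.2 and 75.7 after 2 h, 97.1 and 88.1 after 4 h, and 103 and 111 after 24 h. Its 24 h change was the smallest of the 6 called, with a log2 change of 0.65 (SE 0.09, edgeR adjusted p = 1.41e-09). At 4 h it rose by 0.44 (SE 0.09, edgeR adjusted p = 0.000943), and at 2 h its log2 change of 0.15 (SE 0.09) did not pass the test (edgeR adjusted p = 0.583).

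Peaks 4, 5 and 6 form a second group beyond a gap of 7.4 kb. Peak 4, chr20:61164142-61164542, held 39.9 and 42.9 CPM in DMSO, 56.4 and 58.7 after 2 h, 69.8 and 65 after 4 h, and 84.6 and 85.8 after 24 h. It was the other peak called at 2 h, with a log2 change of 0.48 (SE 0.11, edgeR adjusted p = 0.0069), followed by 0.70 at 4 h and 1.04 (SE 0.10, edgeR adjusted p = 1.6e-16) at 24 h. As in all 6 peaks called at 24 h, its libraries stepped up at every time without overlap. The share of all peaks with such steps was not counted. Peak 5, chr20:61165241-61165641, held 34.4 and 31.3 CPM in DMSO, 43.8 and 41.4 after 2 h, 54.3 and 48.9 after 4 h, and 66.4 and 62.3 after 24 h. Its log2 change was 0.37 at 2 h (edgeR adjusted p = 0.144), 0.65 at 4 h (0.000141) and 0.97 (SE 0.11) at 24 h (4.01e-12). Peak 6, chr20:61166840-61167240, was the weakest of the rising peaks, with 27.3 and 20.2 CPM in DMSO, 27.8 and 31.4 after 2 h, 33 and 36 after 4 h, and 37.2 and 43.5 after 24 h. It rose by 0.54 (SE 0.15) at 4 h (edgeR adjusted p = 0.0236) and by 0.76 (SE 0.14) at 24 h (1.48e-05), and DMSO library A nearly met 2 h library A.

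Peak 1, chr20:61147999-61148399, set 6.93 kb before peak 2, had the largest change of the locus at 24 h and most of it came late. It held 27.9 and 22.2 CPM in DMSO, 31.6 and 31.4 after 2 h, 34.4 and 32 after 4 h, and 57.1 and 54.6 after 24 h. Its log2 changes of 0.33 (SE 0.14) at 2 h and 0.40 (SE 0.15) at 4 h did not pass the test (edgeR adjusted p = 0.336 and 0.138), and at 24 h it rose by 1.16 (SE 0.13, edgeR adjusted p = 1.02e-13). Peak 7, chr20:61193300-61193700, was weak and did not follow the others. It held 7.69 and 6.25 CPM in DMSO, 3.58 and 5.55 after 2 h, 6.54 and 5.46 after 4 h, and 3.57 and 5.23 after 24 h, which is 13 to 27 counts per library. Both 24 h libraries were below both DMSO libraries, with a log2 change of -0.68 (SE 0.31, edgeR adjusted p = 0.179). Peak 7 is described because of these values and not by the rule that named the others.

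**Figure D3:**
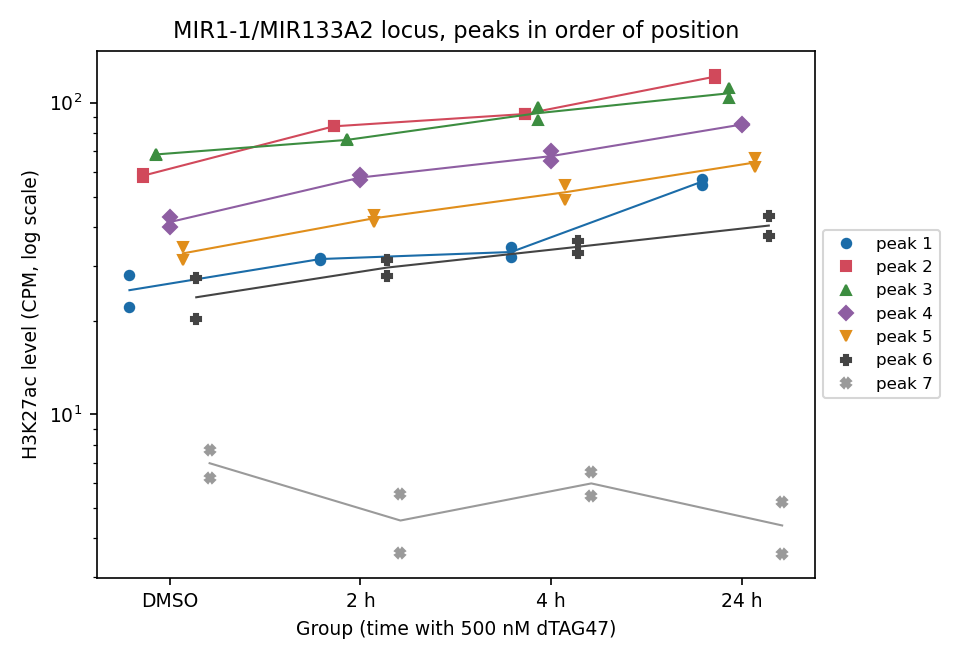
H3K27ac level in CPM (log axis) of the 7 peaks of MIR1-1/MIR133A2 by group. Symbols are the 2 libraries and lines join group means. Peaks 1 to 6 are higher at 24 h than in DMSO without overlap, from 58.3 to 121 CPM as means for peak 2, and peak 7 stays below 8 CPM.

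The 3 comparisons with DMSO share its libraries, and those between treated groups use none of them. From 2 h to 24 h, 6 of the 15 peaks were called higher, peaks 1 to 6, against 1.69% of all peaks. From 4 h to 24 h, 3 were called higher, peaks 1, 2 and 4, against 0.438%. The log2 changes from 4 h to 24 h were 0.75 (SE 0.11, edgeR adjusted p = 5.24e-06) for peak 1, 0.40 (SE 0.08, 0.000915) for peak 2 and 0.34 (SE 0.09, 0.0264) for peak 4. For peaks 3, 5 and 6 they were 0.21, 0.32 and 0.22 (edgeR adjusted p = 0.18, 0.08 and 0.446). Between 2 h and 4 h edgeR called 0 of the 15 peaks, as it did of all peaks (0% higher). All 7 peaks of the locus had a positive log2 change in that step, from 0.07 to 0.35, and 3 of them had an unadjusted p under 0.05. Of all peaks, 3.3% were higher at that threshold. DESeq2 also called none there.

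Summing the counts of neighbouring peaks gives a more precise value. Peaks that lie close together were stitched into regions over the whole table, and peaks 1 to 6 became 1 region of 6 peaks and 19.2 kb. Its level of 354 CPM over the 8 libraries ranked 117th of the 26144 regions tested. It held 256 and 242 CPM in DMSO, 321 and 322 after 2 h, 382 and 362 after 4 h, and 472 and 477 after 24 h. Log2 changes against DMSO were 0.37 (SE 0.05) at 2 h, 0.58 (SE 0.05) at 4 h and 0.93 (SE 0.05) at 24 h, all called by edgeR, where 0.474%, 0.972% and 4% of regions were called higher. By p-value the region was the 14th, the 3rd and the 2nd of all regions at these times, and by size of the rise the 1617th, the 697th and the 280th. From 2 h to 24 h it rose by 0.56 (SE 0.05) and had the lowest p-value of all regions, where 2.2% were called higher. From 4 h to 24 h it rose by 0.35 (SE 0.05), where 0.754% were called higher. From 2 h to 4 h its log2 change of 0.21 (SE 0.05) did not pass the test (edgeR adjusted p = 0.105, with 0% of regions called higher), though its p-value was the 2nd lowest of all regions. This call changed with the scaling: edgeR's adjusted p was 0.0401 with total counts in peaks and 0.0324 with offsets that follow abundance. Against a change of at least 1.2-fold, the region's calls were lost at 2 h (glmTreat adjusted p = 0.386) and from 4 h to 24 h (0.499).

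Whether single peaks departed from the region they belong to was tested with edgeR's diffSpliceDGE, which treats peaks as parts of a region. At 24 h against DMSO 0 of the 13 member peaks in regions of several peaks were called, against 1.43% of all such peaks, and 4 had an unadjusted p under 0.05. The largest departures among peaks 1 to 6 were -0.28 log2 units for peak 3 (adjusted p = 0.112) and 0.23 for peak 1 (adjusted p = 0.597). From 4 h to 24 h peak 1 departed by 0.40 (unadjusted p = 0.000606, adjusted p = 0.254). In that step 0 members were called against 0.0419% of all such peaks, and 1 member had an unadjusted p under 0.05. For all such peaks the share at an unadjusted p was not counted, so the counts of 4 and 1 stand without it. No test thus showed that peak 1 changed otherwise than its neighbours. In shares of the locus, peak 2 held 22.3% and 23.2% of the counts in DMSO and 25.9% and 24.8% at 24 h. Peak 3 held 25.8% and 27.5% in DMSO and 21.7% and 23.1% at 24 h. The shares themselves were not tested.

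The surroundings of the window were described in the same way. Within 500 kb on either side of the window there were 75 other peaks, of which 4 were called higher and 3 lower at 24 h, where 3.46% and 4.88% of all peaks were. They had a median log2 change of 0.04 and a highest value of 0.66. Of the 6 rising peaks inside, 5 exceeded 0.66 and peak 3, at 0.65, did not. The nearest peaks outside, at 61087815 and 61203821, had log2 changes of 0.28 and 0.19. That at 61087815 was itself among the 4 called higher (SE 0.09, edgeR adjusted p = 0.0287). That at 61203821 was not called (edgeR adjusted p = 0.617).

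**Figure D4:**
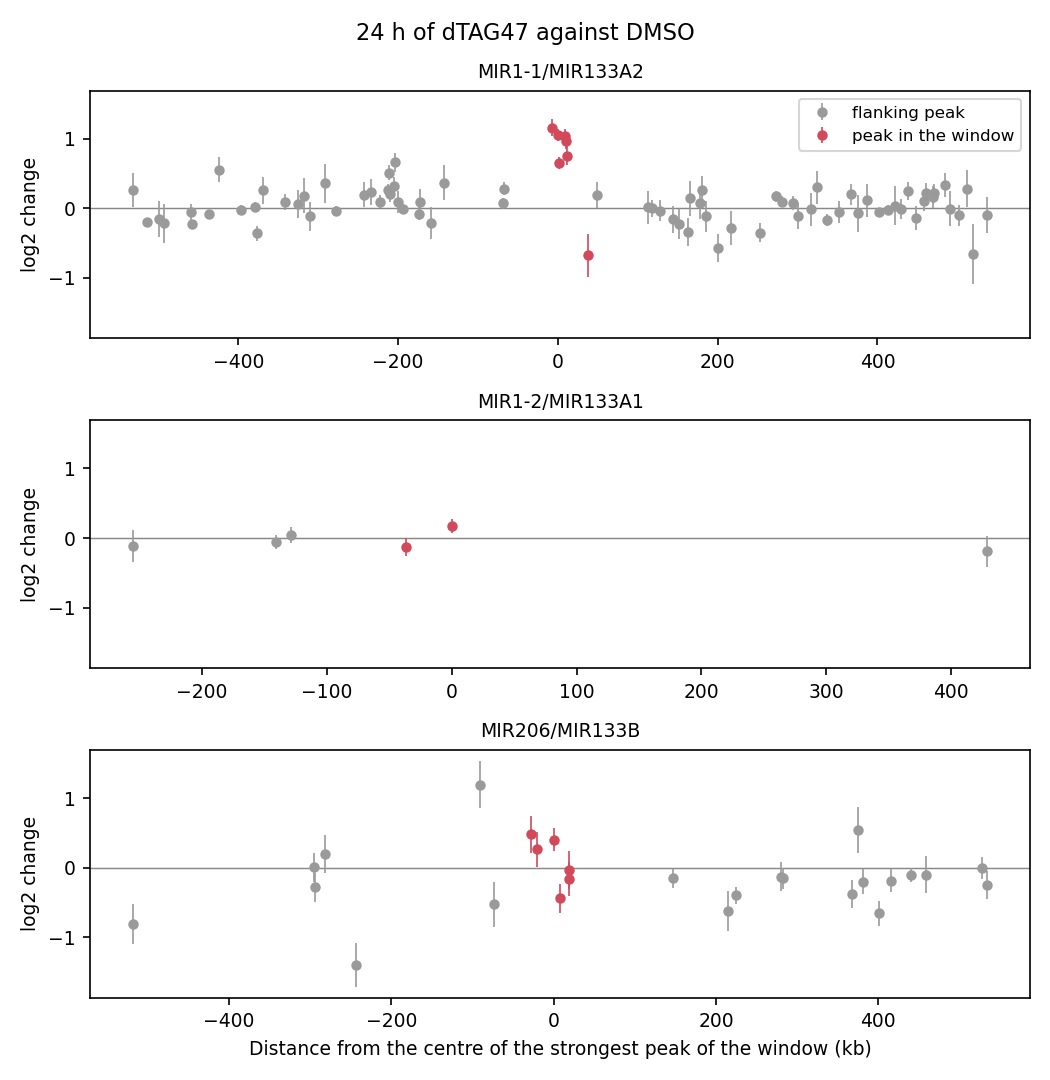
Log2 change at 24 h against DMSO with its standard error (vertical axes) by distance in kb from the strongest peak of each window (horizontal axes), for peaks in the windows (red) and within 500 kb of them (grey). At MIR1-1/MIR133A2 5 of the 6 called peaks lie above every flanking peak, which reach 0.66, and peak 3 lies at 0.65. At MIR1-2/MIR133A1 the stronger peak, at 0.17, lies above the 4 flanking peaks, which reach 0.04, and at MIR206/MIR133B the peaks of the window lie within the range of those around them.

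At MIR1-2 and MIR133A1, which encode the same mature miR-1-3p and miR-133a-3p, neither peak was called in any comparison. The stronger, chr18:19320855-19321255, held 71.2 and 54.8 CPM in DMSO, 73.5 and 60 after 2 h, 60 and 74.9 after 4 h, and 69.5 and 72.3 after 24 h. Libraries of one group differed by as much as groups did, and the log2 change at 24 h was 0.17 (SE 0.10, edgeR adjusted p = 0.337). As a region of its own this peak was called without DMSO library A, with a log2 change of 0.38 (edgeR adjusted p = 0.0462), and without library B the change was -0.000696. The other, chr18:19284339-19284739, ran from 27.8 to 38.9 CPM, with a log2 change of -0.13 (SE 0.13) at 24 h (edgeR adjusted p = 0.613). Within 2 SE on either side, the change at 24 h lay between -0.03 and 0.37 for the stronger peak. For the other peak it lay between -0.39 and 0.12. Changes within these ranges are not excluded, and the smallest detectable change was not computed. Both peaks lie in the lower part of the window. After 19321255 no peak starts in the remaining 149 kb, and the next on the chromosome starts 428 kb away, at 19749481. The peak nearest below the window, at 19192275, had a log2 change of 0.04, and that at 19749481 one of -0.19. The table does not say which gene a peak belongs to, so the promoter of MIB1 and elements of the microRNAs cannot be told apart here.

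At MIR206 and MIR133B the 6 peaks were weak, between 5.69 and 25.1 CPM in single libraries, and none was called in any comparison. The strongest, the third by position, chr6:52001723-52002123, held 16.8 and 16.5 CPM in DMSO, 19.8 and 19 after 2 h, 22.9 and 25.1 after 4 h, and 23.2 and 20.7 after 24 h. Its treated libraries were all above DMSO. Its log2 change was 0.22 at 2 h, 0.53 (SE 0.17) at 4 h (edgeR adjusted p = 0.0856) and 0.40 (SE 0.17) at 24 h (edgeR adjusted p = 0.132). The neighbour 7.01 kb beyond, chr6:52009133-52009533, went the other way. It held 15.7 and 14.5 CPM in DMSO, 9.63 and 10.9 after 2 h, 10.4 and 9.18 after 4 h, and 11.7 and 10.5 after 24 h. Every treated library was below both DMSO libraries, with log2 changes of -0.54 (SE 0.22), -0.63 (SE 0.22) and -0.44 (SE 0.21) at the 3 times, and none passed the test (edgeR adjusted p = 0.253, 0.129 and 0.193). Against its region of 4 peaks it departed by -0.78 log2 units at 4 h (unadjusted p = 0.000513, diffSpliceDGE adjusted p = 0.175). This peak was singled out after its values were seen, and the 3 comparisons share the DMSO libraries.

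The first peak of that locus, chr6:51973677-51974077, had the largest 24 h change there, 0.48 (SE 0.27, edgeR adjusted p = 0.315). That value rests on the DMSO libraries, which held 5.69 and 15.6 CPM. The treated libraries lay between 10.7 and 17.8 CPM. Without DMSO library B the change was 1.38 and was called higher (edgeR adjusted p = 0.00336), and without library A it was -0.07. The other 3 peaks ran from 6.37 to 12.8 CPM, with log2 changes at 24 h of 0.27, -0.03 and -0.16. Stitched, the locus formed a region of 2 peaks with a log2 change of 0.40 (SE 0.17, edgeR adjusted p = 0.115) at 24 h and one of 4 peaks with 0.01 (SE 0.11, 0.975). The region of 2 peaks was called without DMSO library B (0.81, edgeR adjusted p = 0.0115) and without 24 h library B (0.60, 0.0285). The peak nearest below the window, at 51928584, had a log2 change of -0.52, and the one nearest above, at 52149169, of -0.15. Of 21 peaks within 500 kb of this window, 1 was called higher and 3 lower at 24 h, where 3.46% and 4.88% of all peaks were.

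**Figure D5:**
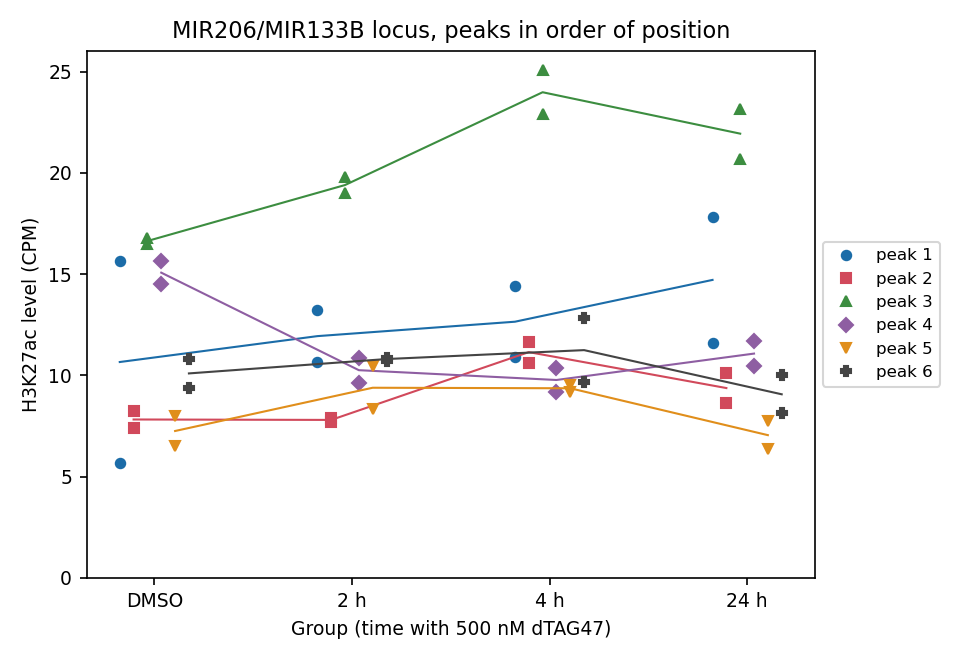
H3K27ac level in CPM (vertical axis from 0) of the 6 peaks of MIR206/MIR133B by group. Symbols are the 2 libraries and lines join group means. Peak 3 goes from 16.6 CPM in DMSO to 24 CPM at 4 h, and peak 4 from 15.1 to 9.77 CPM.

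Regions elsewhere whose level followed the summed MIR1-1 and MIR133A2 signal most closely were sought over the 8 libraries among 13066 regions at or above the median level. The 3 with the highest Pearson r of log2 CPM were on chromosome 1 at 201058322 to 201083822 (r = 0.998), on chromosome 1 at 235091111 to 235133609 (r = 0.982) and on chromosome 11 at 2759292 to 2783324 (r = 0.977). Their log2 changes at 24 h were 0.47, 0.26 and 0.40, all smaller than the 0.93 of the microRNA region. The 8 points of each correlation fall in 4 groups and share their libraries. Being taken over single libraries, r follows differences within groups as well as between them. These regions were picked for the highest r of 13066, so a high value comes with the choice. For the other loci the highest r was 0.948 at MIR1-2 and MIR133A1 and 0.976 at MIR206 and MIR133B, where the sums hardly moved.

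The calls at 2 h and 4 h depended on the test more than those at 24 h. By DESeq2's Wald test 0 members were called higher at 2 h (0% of all peaks), 2 at 4 h (0.0106%), 6 at 24 h (0.236%), 4 from 2 h to 24 h (0.0537%) and 0 from 4 h to 24 h (0%). Against a change of at least 1.2-fold by edgeR's glmTreat, 0 were called higher at 2 h (0%), 3 at 4 h (0.0431%) and 6 at 24 h (1.13%). From 4 h to 24 h 1 was called higher, peak 1 (0.0263%). From 2 h to 24 h peaks 3 and 6 were no longer called (glmTreat adjusted p = 0.0611 and 0.431). In that step 0.292% of all peaks were called higher. Some calls at 2 h and 4 h were also lost with 1 library left out, where the share of all peaks called was not counted. At 24 h the region of peaks 1 to 6 was called under each alternative that kept these peaks together, with log2 changes from 0.89 to 0.97. Stitched over at most 5 kb, the region of the strongest peak held only peaks 2 and 3 and was called with a change of 0.86. The 2 libraries of a group are not stated to come from separate cultures, so the spread between libraries behind these p-values may be technical. In edgeR that spread was estimated largely from all peaks together and not from the 2 libraries of single peaks. It was small, with a common coefficient of variation of 3.29% beyond counting noise.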

How the data were processed

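The deposited table holds raw read counts per peak for 8 H3K27ac libraries, 2 in each of 4 groups, with totals of 3540104 to 5001652 counts in peaks. Peaks were 400 bases wide in 42065 of 42067 rows. Per the submitters' processing notes, the builds hg19 and dm3 were used together with DESeq2, DiffBind, MACS2, Bowtie2 and Trimmomatic 0.32, with no roles given. Which libraries the peaks were called in, and whether a spike-in entered the counts, is not stated in the labels. A change shared by all peaks would be removed by the scaling.

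From the counts, edgeR 4.0.16 (R 4.3.3) was fitted over all 4 groups with TMM scaling, after filterByExpr (minimum count 10, minimum total 15), which removed 276 peaks. The robust quasi-likelihood test was used with Benjamini-Hochberg adjustment over 41791 peaks and a threshold of 0.05. Levels are CPM on the TMM-scaled library size. Regions joined peaks at most 12.5 kb apart. Pearson r was taken on log2 of CPM plus 0.5. Scripts were tested on simulated data. Alternatives were DESeq2 1.42.0, other scalings, no filter, 2-group fits, a 1.2-fold threshold, stitching over at most 5 or 25 kb, leaving out each library and, chosen after seeing the data, the column letter as a block. No column was without a group.

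The loci, lists and tests were chosen with earlier results of these data known. Peaks given in full were those called against DMSO, and the strongest and the most changed at 24 h in each locus, with 2 further, on chromosomes 20 and 6, chosen after their values were seen. No annotation of hg19 was used here, so peaks were not assigned to genes, no peak sequence was read, and a list of other myogenic genes was not analysed here.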

Additional observations from a re-analysis of the deposited data

How the results depend on the processing

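The 6 calls at 24 h held under each scaling, with no filter, in 2-group fits, under DESeq2 and under the 1.2-fold threshold. Over these fits and those without each library in turn, the log2 changes of these 6 peaks ran from 0.56 to 1.33. Members called higher numbered 0 at 2 h, 3 at 4 h and 1 from 4 h to 24 h with the 1.2-fold threshold, and 0, 2 and 0 with DESeq2. With 1 library left out, some calls at 2 h and 4 h were lost, and the share of all peaks called was not counted for those fits. The lone library is then assumed to vary like the other groups. Some changes not called with all libraries changed sign in this way, and those of the first peak of MIR206/MIR133B and of 1 region of MIR1-2/MIR133A1 at 24 h were called without 1 library. For the first peak of MIR206/MIR133B the log2 change ran from -0.41 to 1.05 at 2 h, from -0.30 to 1.16 at 4 h and from -0.068 to 1.38 at 24 h. For the stronger peak of MIR1-2/MIR133A1 it ran from -0.11 to 0.27 at 2 h, from -0.072 to 0.30 at 4 h and from -0.0062 to 0.37 at 24 h. For regions at 24 h it ran from -0.25 to 0.0078 and from -0.000696 to 0.38 at MIR1-2/MIR133A1. It ran from -0.15 to 0.11 for the region that joined peak 7 of MIR1-1/MIR133A2 to the stronger peak at 61203821, outside the window. For the 4 peaks of MIR206/MIR133B it ran from -0.052 to 0.076. The cause was not tested. Stitched over at most 5 kb, the regions of the strongest peaks became smaller, and the change at 24 h was 0.41 for the strongest peak of MIR206/MIR133B alone and -0.67 for peak 7 alone. Over at most 25 kb the 6 peaks of MIR206/MIR133B became 1 region with a change of 0.13. The columns carry letters and the labels numbers, so the labels' numbers could not be used for pairing. The difference between libraries A and B correlated between groups with r from -0.0332 to 0.0543 over all peaks. Libraries of a group differed by little more than counting noise (chi-square per degree of freedom from 1.06 to 1.21). A low r thus cannot show whether the letters mark a shared batch. With the letter as a replicate block, a fit chosen after seeing the data, members called higher numbered 2, 5 and 6 at 2 h, 4 h and 24 h. No call of a peak or region described here changed, and the share of all peaks called was not counted for that fit. Low counts per peak limit what could be detected at MIR206/MIR133B.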
